A study of Homo sapiens with 9 samples.

Results

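RSL3 plus Fer-1 was compared with RSL3 alone in A549 cells, across the protein-coding genes that these cells express. A549 is an established human lung adenocarcinoma line with a KEAP1 mutation, which leaves the antioxidant transcription factor NRF2 active. The co-treated group received 2 µM RSL3 and 5 µM Fer-1 (ferrostatin-1), the group it is set against received RSL3 at 2 µM, and the vehicle group received DMSO, each for 24 h. Each group had 3 libraries made from total RNA, and the groups shared the cell line and the medium with 10% fetal bovine serum. Nothing in the labels tells separate cultures from repeat libraries of 1 culture, so p-values measure the spread between these samples, which may be technical. Fer-1 without RSL3 was not analysed here.

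The genes described are the named protein-coding loci with at least 1 FPKM (fragments per kilobase of transcript, scaled to library size) in 3 or more of the 9 libraries. They numbered 9583 of the 17297 named loci that passed this minimum, of 41948 named loci and of 43444 loci in all. Another 5827 named protein-coding loci lay below the minimum. The minimum was reached in all 9 libraries by 8997 of the 9583. It was reached in the RSL3 libraries alone by 13 loci and in the RSL3 plus Fer-1 libraries alone by 0, so loci that passed through 1 group had to differ. The names of 1823 of these loci join several genes, and their values cannot be split between those genes. Whether the libraries kept strand is not given in the sources used here, so reads of a gene and of an overlapping antisense gene cannot be told apart.

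Ferroptosis is a form of cell death in which iron drives the peroxidation of polyunsaturated phospholipids until membranes fail. GPX4 reduces lipid hydroperoxides with glutathione, and RSL3 inactivates GPX4. Fer-1 traps lipid radicals and stops the chain reaction without restoring GPX4 activity. Cells under lipid peroxidation are known to switch on the integrated stress response, iron and redox defence, and inflammatory and MAP kinase signalling.

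Library totals lay between 39143521 and 45855255 counts. Levels are given as CPM, counts scaled to library size, and an empty locus allows 0.0654 to 0.0766 CPM at most (3 counts of the total, counting error only). TMM scaling factors ran from 0.9906 to 1.009. RSL3 replicate 1 stood apart from the other RSL3 libraries on the second principal component, at -31.94 against 31.43 and 22.29 for RSL3 replicates 2 and 3. The cells carried epithelial keratins, with KRT8 at 662 ± 4.15 and 699.6 ± 29.9 CPM in the RSL3 plus Fer-1 and RSL3 groups (SD, n = 3 each). Of 12 epithelial markers listed, 7 lay below the FPKM minimum: KRT19, CDH1, NKX2-1, SFTPB, SFTPC, NAPSA and CLDN4. EPCAM had no named locus. CLDN4, the highest of the 7, had 0.181 to 0.362 FPKM with RSL3 plus Fer-1 and 0.33 to 0.406 FPKM with RSL3. These 7 therefore add little to the epithelial sum that follows. Summed over loci that hold 1 gene, 8 epithelial markers reached 216 to 223 FPKM with RSL3 plus Fer-1 and 222 to 241 FPKM with RSL3. The sums of 6 fibroblast markers were 1.53 to 1.59 and 1.53 to 2.01 FPKM, those of 5 endothelial markers 0.2 to 0.277 and 0.156 to 0.378 FPKM, and those of 7 leukocyte markers 2.19 to 2.47 and 3.56 to 5.54 FPKM. In the leukocyte list CD3E was at 0 in all 6 libraries, and LYZ, which encodes lysozyme, was the called member, -1.20 on the log2 scale (adjusted p = 0.00446). The part of leukocyte transcripts in other results was not tested. In the DMSO libraries the 6 fibroblast markers summed to 1.86 to 11.3 FPKM. In bulk RNA, fewer cells with a transcript and less of the transcript per cell cannot be told apart.

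Adding Fer-1 lowered more genes than it raised, and the falls were larger. Every adjusted p comes from the quasi-likelihood test of edgeR, with Benjamini-Hochberg adjustment over all tested loci. By it 903 of 9583 protein-coding loci were called at an adjusted p under 0.05, or 9.42%, against 6.46% of all 17297 tested loci. Of the 903, 557 were lower with Fer-1 (5.81%) and 346 were higher (3.61%). Each list count below is to be read beside these shares, and a count near them is no result about the list. The 557 include 10 of the 13 loci that reached the FPKM minimum in the RSL3 libraries alone. The median change was -0.32 on the log2 scale among the called falls and 0.23 among the called rises, against 0.0013 over all 9583 loci. Falls of at least 2-fold numbered 15 and rises of that size 1, and 797 of the 903 changes were under 1.5-fold. The 3 libraries of each group did not overlap in 27.8% of the loci, 14.2% lower and 13.6% higher. Without RSL3 replicate 1 there were 416 falls and 222 rises, and without RSL3 plus Fer-1 replicate 2 there were 396 falls and 210 rises. Limma on log2(FPKM + 1) called 311 falls and 145 rises, while DESeq2 called 677 and 470. In the same edgeR model RSL3 against DMSO called 24.9% of the loci and RSL3 plus Fer-1 against DMSO 10.3% (6.29% higher and 4.05% lower). The comparisons share libraries, so values from them are given side by side only. Of the called genes named with values below, SCD and H2BC9 alone had libraries that overlapped between RSL3 plus Fer-1 and RSL3.

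**Figure D1:**
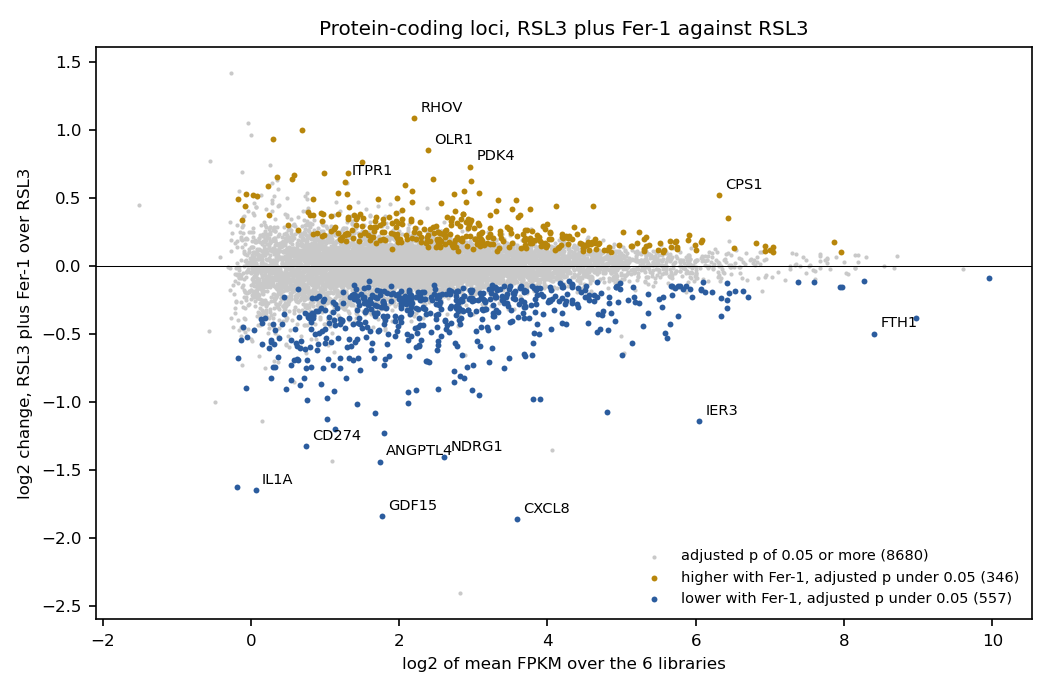
Change of each of the 9583 protein-coding loci with Fer-1 (y axis, log2 of RSL3 plus Fer-1 over RSL3) against its level (x axis, log2 of the mean FPKM over the 6 libraries). Blue points are the 557 called falls, gold points the 346 called rises and grey points the rest; the falls reach further from 0 than the rises.

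Chemokines and cytokines held some of the largest falls. CXCL8 encodes interleukin-8, the main chemoattractant of neutrophils, and its locus lies on chromosome 4 at 73740541 to 73742330 (GRCh38). It had 13.7, 15.1 and 14.1 CPM in the RSL3 plus Fer-1 libraries, against 62.4, 48.3 and 44.8 CPM in the RSL3 libraries and 4.43, 2.78 and 3.5 CPM in the DMSO libraries. The groups did not overlap, and the level was 3.63-fold lower with Fer-1, -1.86 on the log2 scale (SE 0.139, adjusted p = 2.94e-07). RSL3 plus Fer-1 still lay above DMSO, by 2.00 on the log2 scale (adjusted p = 4.8e-07). CXCL2, a second neutrophil chemokine, had 5.16, 5.91 and 5.51 CPM with RSL3 plus Fer-1, against 15.7, 12.3 and 10.8 CPM with RSL3 and 2.61, 2.78 and 2.36 CPM with DMSO. Its fall was 2.34-fold, -1.23 on the log2 scale (SE 0.163, adjusted p = 7.96e-06). IL1A, an alarmin released by damaged cells, had 1.72, 1.08 and 0.959 CPM with RSL3 plus Fer-1, against 4.14, 4.19 and 3.42 CPM with RSL3, a 3.13-fold difference. IL1A reached the FPKM minimum in the RSL3 libraries alone, so a fall was built into its selection and its test is no support. IL11, a cytokine of the interleukin-6 family, had 28.3, 25.4 and 32.3 CPM with RSL3 plus Fer-1, against 50.1, 48.6 and 46.1 CPM with RSL3 and 9.67, 8.12 and 9.16 CPM with DMSO. It fell 1.69-fold (adjusted p = 1.28e-06) and stayed above DMSO by 1.67 on the log2 scale (adjusted p = 1.17e-12). For CXCL2 the distance of RSL3 plus Fer-1 from DMSO was 1.09 (adjusted p = 9.16e-05).

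Of 16 tested NF-kB targets and cytokines, 9 were called lower and 0 higher, and the median of the list was -0.39 on the log2 scale. The 9 include IL1A. The median draws on IL1A and CSF1, neither of which would have reached the FPKM minimum without the RSL3 libraries. NF-kB is the transcription factor family behind much of inflammatory gene expression. TNFAIP3, the ubiquitin-editing enzyme that restrains it, fell 1.46-fold to 22.2 ± 0.295 CPM with RSL3 plus Fer-1, against 32.4 ± 3.21 CPM with RSL3. The subunit genes NFKB2 and RELB fell 1.3-fold and 1.47-fold, and the RELB call ended without RSL3 plus Fer-1 replicates 2 or 3 or RSL3 replicates 1 or 2 (highest adjusted p = 0.198). SOD2, the mitochondrial superoxide dismutase, had 107, 108 and 106 CPM with RSL3 plus Fer-1, against 172, 151 and 149 CPM with RSL3, in a locus that also holds SOD2-OT1, and fell 1.47-fold. BIRC3, an inhibitor of apoptosis, fell 1.18-fold to 116 ± 5.06 CPM, below the 145 ± 8.8 CPM of DMSO (-0.32 on the log2 scale, adjusted p = 3.45e-05). NFKBIA, the inhibitor that NF-kB itself induces, stood at 23.1 ± 1.06 CPM with RSL3 plus Fer-1 and 23.7 ± 0.73 CPM with RSL3, a difference of -0.03 (adjusted p = 0.902). CSF1 and LIF differed by -0.37 and -0.25 (adjusted p = 0.288 and 0.076). IL6, CXCL1, CXCL3, CCL20 and IL1B lay below the FPKM minimum and were not tested.

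CD274 encodes PD-L1, the ligand by which tumour cells restrain T cells, and lies on chromosome 9 at 5450503 to 5470566. It had 4.93, 4.88 and 5.17 CPM with RSL3 plus Fer-1, against 14.2, 12.7 and 10.6 CPM with RSL3 and 4.29, 3.23 and 2.58 CPM with DMSO. The level was 2.51-fold lower with Fer-1, -1.33 on the log2 scale. CD274 also reached the FPKM minimum in the RSL3 libraries alone, so a fall was built into its selection and no test is given. Of 17 tested interferon response genes, 1 was called lower and 1 higher, with a median of 0.00085. These were IRF1, an interferon-induced transcription factor, at -0.54, and the antiviral synthetase OAS1, at 0.33 on the log2 scale. The IRF1 call ended without RSL3 plus Fer-1 replicate 2 or RSL3 replicate 1 (highest adjusted p = 0.0643), and the OAS1 call without RSL3 plus Fer-1 replicates 1, 2 or 3 or RSL3 replicate 1 (highest adjusted p = 0.239).

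The promoters of 4 of the genes with the largest falls are printed here because CXCL8 and CXCL2, GDF15 and ANGPTL4 stand among the strongest falls of the cytokine, stress response and lipid lists. Each sequence runs 5′ to 3′ on the gene's strand, from 250 bases before to 50 bases after the annotated start, and comes from RefSeq on GRCh38.p14. Capitals mark matches to the motifs searched on both strands: AP-1 (TGANTCA), the NF-kB consensus (GGGRNNYYCC), the hypoxia response core (ACGTG), the C/EBP-ATF element (TGATGNAA) and the cyclic AMP response core (TGACGTCA). N is any base, R is A or G, and Y is C or T. Sites that depart from these patterns are left unmarked.
CXCL8 promoter, chr4:73740319-73740618, plus strand: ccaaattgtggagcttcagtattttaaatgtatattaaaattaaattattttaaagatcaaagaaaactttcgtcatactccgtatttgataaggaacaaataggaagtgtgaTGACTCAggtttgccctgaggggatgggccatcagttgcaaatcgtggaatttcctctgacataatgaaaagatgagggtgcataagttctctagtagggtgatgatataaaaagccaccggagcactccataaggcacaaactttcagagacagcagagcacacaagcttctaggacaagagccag
GDF15 promoter, chr19:18385908-18386207, plus strand: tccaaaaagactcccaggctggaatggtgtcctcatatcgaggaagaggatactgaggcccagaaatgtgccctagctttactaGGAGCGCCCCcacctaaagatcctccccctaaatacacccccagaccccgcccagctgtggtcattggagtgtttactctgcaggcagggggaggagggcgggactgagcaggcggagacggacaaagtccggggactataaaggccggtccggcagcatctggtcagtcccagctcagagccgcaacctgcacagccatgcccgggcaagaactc
ANGPTL4 promoter, chr19:8363905-8364204, plus strand: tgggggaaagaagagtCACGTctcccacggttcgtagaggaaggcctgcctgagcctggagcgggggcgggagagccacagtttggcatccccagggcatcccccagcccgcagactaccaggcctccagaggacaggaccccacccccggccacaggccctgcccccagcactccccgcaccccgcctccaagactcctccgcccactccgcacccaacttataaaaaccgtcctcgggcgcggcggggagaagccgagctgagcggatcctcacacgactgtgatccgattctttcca
CXCL2 promoter, chr4:74099146-74099445, minus strand: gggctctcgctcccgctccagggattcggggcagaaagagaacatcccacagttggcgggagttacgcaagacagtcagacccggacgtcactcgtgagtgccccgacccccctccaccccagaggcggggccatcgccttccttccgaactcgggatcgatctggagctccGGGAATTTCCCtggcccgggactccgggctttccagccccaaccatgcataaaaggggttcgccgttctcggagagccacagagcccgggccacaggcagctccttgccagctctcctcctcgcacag
In CXCL8 the capitals are an AP-1 match that starts at position -137 from the start site. The CXCL8 stretch tggaatttcc departs from the NF-kB consensus in its leading base only, and so it is not marked. In CXCL2 the capitals are 2 overlapping NF-kB matches, 1 on each strand, at -78 and -77. GDF15 has an NF-kB match on the reverse strand at -166, and ANGPTL4 a hypoxia core on the reverse strand at -234. Over all 35116 promoters of the same length, 7.71% held the AP-1 motif, 11.3% the NF-kB consensus and 21.4% the hypoxia core. Promoters were found for 7 of the 14 genes with the largest falls and 12 of the 14 with the largest rises. The NF-kB consensus was in 2 of the 7 and 5 of the 12, and the AP-1 motif in 1 of the 7 and 0 of the 12.

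Genes that cells switch on through MAP kinase signalling fell as well. DUSP5, a nuclear phosphatase that inactivates ERK, had 24.3, 20.6 and 24 CPM with RSL3 plus Fer-1, against 49.1, 46.1 and 44.2 CPM with RSL3 and 16.3, 18.5 and 15.1 CPM with DMSO. It fell 2.02-fold, -1.02 on the log2 scale (SE 0.0878, adjusted p = 8.46e-09). ERRFI1, an inhibitor of the EGF receptor, had 15.7, 16 and 14.6 CPM with RSL3 plus Fer-1, against 33.4, 25.4 and 28.9 CPM with RSL3, and SPRY4, a Sprouty inhibitor of Ras signalling, 14.7, 11.7 and 15.8 CPM against 26.6, 26.1 and 21.9 CPM. The falls of ERRFI1 and SPRY4 were 1.9-fold and 1.77-fold, and no library of either group overlapped. Of 19 tested MAP kinase feedback genes, 10 were called lower and 1 higher, with a list median of -0.20. The phosphatase DUSP6 fell 1.51-fold, a call that ended without RSL3 plus Fer-1 replicates 1, 2 or 3 or RSL3 replicates 1 or 2 (highest adjusted p = 0.147). DUSP4 fell 1.42-fold and DUSP1 1.28-fold, and both stayed above DMSO with Fer-1, by 0.62 and 0.54 (adjusted p = 4.49e-10 and 1.02e-06). SPRY2 fell 1.51-fold and the ephrin receptor EPHA2 1.32-fold. DUSP2, another nuclear MAP kinase phosphatase, went the other way, at 13.5, 15 and 11.8 CPM with RSL3 plus Fer-1, against 9.53, 9.59 and 8.39 CPM with RSL3. Its rise was 1.46-fold, and the call ended without RSL3 plus Fer-1 replicate 2 (adjusted p = 0.0846).

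Immediate early transcription factors were called lower in 9 of 19 and higher in 1, with a median of -0.23. IER3, a short-lived early response protein, had 67.5, 64.6 and 72.1 CPM with RSL3 plus Fer-1, against 162, 149.5 and 139.8 CPM with RSL3 and 63.9, 65.2 and 59.2 CPM with DMSO, and fell 2.21-fold (adjusted p = 4.89e-13). The co-treated and DMSO libraries overlapped there. The AP-1 subunit JUN had 14.1, 12 and 12.7 CPM with RSL3 plus Fer-1, against 29.8, 23.7 and 19.3 CPM with RSL3, a 1.88-fold fall. FOSL1 and JUNB, which also build AP-1, fell 1.63-fold and 1.58-fold. KLF6, a zinc finger factor, and ZFP36L1, which speeds the decay of short-lived mRNAs, fell 1.62-fold and 1.63-fold. The orphan nuclear receptor NR4A1 rose 1.31-fold to 17.4 ± 1.55 CPM, against 13.2 ± 1 CPM with RSL3, a call that ended without RSL3 plus Fer-1 replicates 1 or 2 or RSL3 replicates 2 or 3 (highest adjusted p = 0.168). MYC stood at 244 ± 5.31 CPM with RSL3 plus Fer-1 and 238 ± 5.57 CPM with RSL3 (0.03, adjusted p = 0.716).

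Several ligands of the EGF receptor fell. EREG, which encodes epiregulin, had 113, 106 and 107 CPM with RSL3 plus Fer-1, against 227, 203 and 199.7 CPM with RSL3 and 138, 126 and 129 CPM with DMSO. With Fer-1 it lay 1.93-fold below RSL3 (adjusted p = 6.35e-13) and also below DMSO (-0.27 on the log2 scale, adjusted p = 0.000615). Epigen (EPGN) fell 1.87-fold to 54 ± 2.57 CPM, against 101 ± 10.8 CPM with RSL3, and TGFA fell 1.66-fold to 39.2 ± 2.79 CPM, against 65 ± 3.37 CPM. HBEGF fell 1.68-fold, a call that ended without RSL3 plus Fer-1 replicates 1, 2 or 3 or RSL3 replicate 1 (highest adjusted p = 0.391), and it would not have reached the FPKM minimum without the RSL3 libraries. These were the 4 called of 9 tested ligands and receptors. EGFR itself had 7882, 7882 and 7900 CPM with RSL3 plus Fer-1, against 10210, 6105 and 10230 CPM with RSL3 and 7515, 7338 and 4579 CPM with DMSO. Its RSL3 and DMSO libraries spread widely, and the difference was -0.17 (SE 0.266, adjusted p = 0.84). AREG lay below the FPKM minimum.

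**Figure D2:**
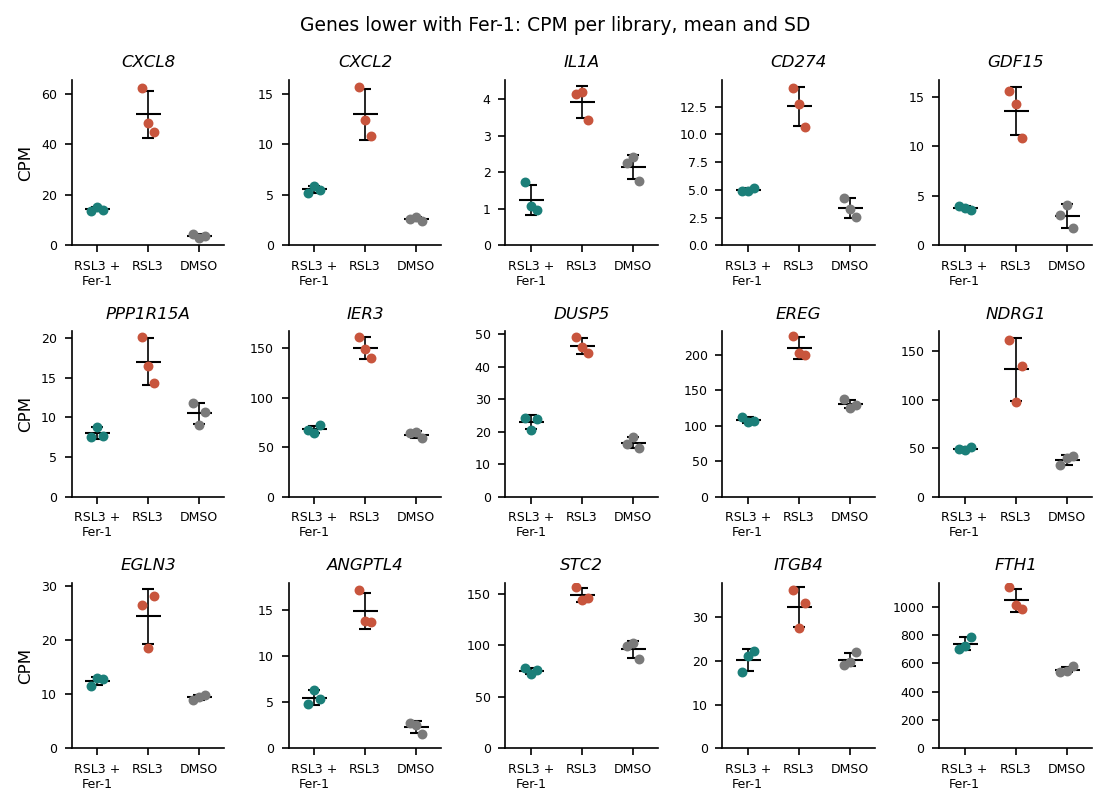
CPM per library (y axis, from 0) of 15 genes that were lower with Fer-1, with RSL3 plus Fer-1 (green), RSL3 (red) and DMSO (grey); bars are the mean and SD of 3 libraries. In every panel the 3 RSL3 plus Fer-1 libraries lie below the 3 RSL3 libraries, and for IER3, GDF15 and ITGB4 they overlap the DMSO libraries. IL1A and CD274 reached the FPKM minimum in the RSL3 libraries alone, so the gap in those panels was built into their selection.

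In the stress response, secreted factors and a regulator of protein synthesis fell. GDF15 encodes a stress hormone that acts on the brainstem to reduce appetite, and its locus spans chromosome 19 at 18374731 to 18389176. It had 4, 3.8 and 3.57 CPM with RSL3 plus Fer-1, against 15.5, 14.3 and 10.9 CPM with RSL3 and 3.08, 4.09 and 1.75 CPM with DMSO, a 3.58-fold fall (SE 0.222 on the log2 scale, adjusted p = 1.17e-05). PPP1R15A, the subunit that turns protein synthesis back on after stress, had 7.53, 8.83 and 7.69 CPM with RSL3 plus Fer-1, against 20.1, 16.5 and 14.4 CPM with RSL3, and fell 2.12-fold (adjusted p = 5.61e-06). STC2, a secreted glycoprotein of stressed cells, had 78.1, 72.2 and 75.8 CPM with RSL3 plus Fer-1, against 156, 144 and 146 CPM with RSL3 and 99, 102 and 86.7 CPM with DMSO. It fell 1.97-fold and lay below DMSO (-0.35 on the log2 scale, adjusted p = 0.000139). Of 27 tested genes of ATF4 and the amino acid response, 6 were called lower and 2 higher, and the median was -0.05. DDIT3, the transcription factor CHOP, fell 1.63-fold, a call that ended without RSL3 plus Fer-1 replicates 2 or 3 or RSL3 replicate 1 (highest adjusted p = 0.141). DDIT4, an inhibitor of mTORC1, had 100 ± 6.89 CPM with RSL3 plus Fer-1, 145 ± 18.2 CPM with RSL3 and 124 ± 3.7 CPM with DMSO. The serine enzyme PSPH and the cysteine-forming enzyme CTH rose 1.19-fold and 1.29-fold. The PSPH call ended without RSL3 plus Fer-1 replicates 2 or 3 or RSL3 replicate 1 (highest adjusted p = 0.122), and the CTH call without RSL3 plus Fer-1 replicates 1 or 3 or RSL3 replicates 1 or 3 (highest adjusted p = 0.166). Both rises were lost together in the fit without RSL3 plus Fer-1 replicate 3. ATF4 itself differed by 0.03 (adjusted p = 0.879) and TRIB3 by -0.14 (adjusted p = 0.242). CHAC1, the glutathione-degrading enzyme used as a ferroptosis marker, and ATF3 lay below the FPKM minimum.

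Aminoacyl-tRNA synthetases, many of them ATF4 targets, had 0 of 18 called by edgeR. At an unadjusted p under 0.05 there were 2, and DESeq2 and limma called 0. The log2 differences of EPRS1 and IARS1 were -0.05 and 0.02 (adjusted p = 0.605 and 0.822). Endoplasmic reticulum chaperones were called lower in 6 of 20 and higher in 0, with a median of -0.09. HERPUD1, which serves the degradation of misfolded proteins and shares its locus with AC012181, fell 1.23-fold, and the chaperone HSPA5 fell 1.17-fold to 460.4 ± 4.86 CPM, against 539 ± 41.7 CPM with RSL3. HSP90B1, in a locus with MIR3652, fell 1.14-fold and the disulphide isomerase PDIA4 1.12-fold. The HSP90B1 call ended without RSL3 plus Fer-1 replicates 1 or 2 or RSL3 replicates 1 or 2 (highest adjusted p = 0.0882), and the PDIA4 call without RSL3 plus Fer-1 replicates 2 or 3 or RSL3 replicates 1 or 2 (highest adjusted p = 0.133). The count of chaperones called lower was 3 in each fit that left out RSL3 plus Fer-1 replicate 1, 2 or 3 or RSL3 replicate 1 or 2. Cytosolic and mitochondrial heat shock chaperones were called higher in 3 of 19 and lower in 0. DNAJA1 rose 1.14-fold, HSPD1 1.1-fold and HSPA4L, in a locus with AC093591, 1.11-fold, the last a call that ended without RSL3 plus Fer-1 replicate 2 or RSL3 replicates 1 or 2 (highest adjusted p = 0.064).

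Among p53 targets, 4 of 22 were called lower and 0 higher, with a median of -0.05. GADD45A, a growth arrest gene, had 4.28, 3.82 and 4.04 CPM with RSL3 plus Fer-1, against 9.51, 6.83 and 6.64 CPM with RSL3, and fell 1.89-fold (adjusted p = 0.00111). The death receptor gene TNFRSF10B fell 1.15-fold, a call that ended without RSL3 plus Fer-1 replicate 1 or RSL3 replicate 3 (highest adjusted p = 0.126). GDF15 and SAT1 were the remaining called members. CDKN1A, the cell cycle inhibitor p21, had 19.8, 20.4 and 22.8 CPM with RSL3 plus Fer-1, against 37.4, 28.7 and 33 CPM with RSL3, without overlap, but its test did not pass (-0.66, adjusted p = 0.169). In the BCL2 family, which sets the threshold of apoptosis, the survival genes split. MCL1 had 285 ± 6.75 CPM with RSL3 plus Fer-1 and 386 ± 20.1 CPM with RSL3, in a locus shared with ADAMTSL4-AS1, and fell 1.36-fold (adjusted p = 1.63e-08). BCL2L1 fell 1.35-fold, while BCL2 rose 1.3-fold to 152 ± 1.48 CPM, against 118 ± 4.83 CPM with RSL3 (adjusted p = 1.55e-06). These were the 3 called of 11, and BAX differed by -0.13 (adjusted p = 0.643).

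Hypoxia and glycolysis genes formed the largest group of falls, 22 of 37 tested with 0 rises and a median of -0.26. All 37 had a change below 0, where the median over all 9583 loci was 0.0013. EGLN3, the prolyl hydroxylase induced by low oxygen, had 11.5, 13 and 12.8 CPM with RSL3 plus Fer-1, against 26.4, 18.5 and 28.1 CPM with RSL3 and 8.95, 9.55 and 9.8 CPM with DMSO, and fell 1.96-fold (adjusted p = 8.54e-06). NDRG1 had 49.1, 47.9 and 51.4 CPM with RSL3 plus Fer-1, against 162, 97.1 and 135 CPM with RSL3, and fell 2.65-fold, a call that ended without RSL3 plus Fer-1 replicate 2 (adjusted p = 0.0503). CA9, a carbonic anhydrase induced by low oxygen, had 3.23, 4.58 and 5.44 CPM with RSL3 plus Fer-1, against 33.3, 9.31 and 27.7 CPM with RSL3. Its groups did not overlap, but the RSL3 libraries spread so widely that the difference of -2.40 did not pass (SE 0.525, adjusted p = 0.0531). RSL3 replicate 2 was the lowest of its group for NDRG1, CA9 and EGLN3, and also for the list as a whole. The mean of log2(CPM + 1) over the list lay 0.552, 0.321 and 0.481 above the DMSO mean in RSL3 replicates 1, 2 and 3. With RSL3 plus Fer-1 it lay 0.036 to 0.09 above. Calls of the list share these libraries and are not separate evidence. ADM, the vasodilator adrenomedullin, had 7.88, 8.98 and 7.87 CPM with RSL3 plus Fer-1, against 18.5, 14.6 and 16.6 CPM with RSL3 and 12.1, 11 and 12.5 CPM with DMSO. It fell 2.01-fold and lay below DMSO (-0.52 on the log2 scale, adjusted p = 0.00945).

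The glucose transporters SLC2A3 and SLC2A1 fell 1.88-fold and 1.38-fold, and with Fer-1 SLC2A1 lay below DMSO as well (-0.21, adjusted p = 0.0155). Among mitophagy receptors, BNIP3L had 28.1, 25 and 25.2 CPM with RSL3 plus Fer-1, against 52.8, 37.7 and 46.7 CPM with RSL3, and BNIP3 36.7, 36.1 and 36.6 CPM against 66, 49.8 and 56.9 CPM. They fell 1.75-fold and 1.58-fold. VEGFA, the angiogenic growth factor, fell 1.49-fold to 50.9 ± 3.72 CPM, against 75.8 ± 9.38 CPM with RSL3. PDK1, a kinase that inhibits pyruvate dehydrogenase, fell 1.41-fold and the hexokinase HK2 1.27-fold. Among glycolytic enzymes the aldolase ALDOC fell 1.66-fold, the lactate dehydrogenase LDHA 1.11-fold and the locus of PGK1, which also holds ATP7A, 1.11-fold. The enolase ENO1 differed by -0.02 (adjusted p = 0.782). Of the 22 calls, 16 held in every fit that left out 1 library.

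**Figure D3:**
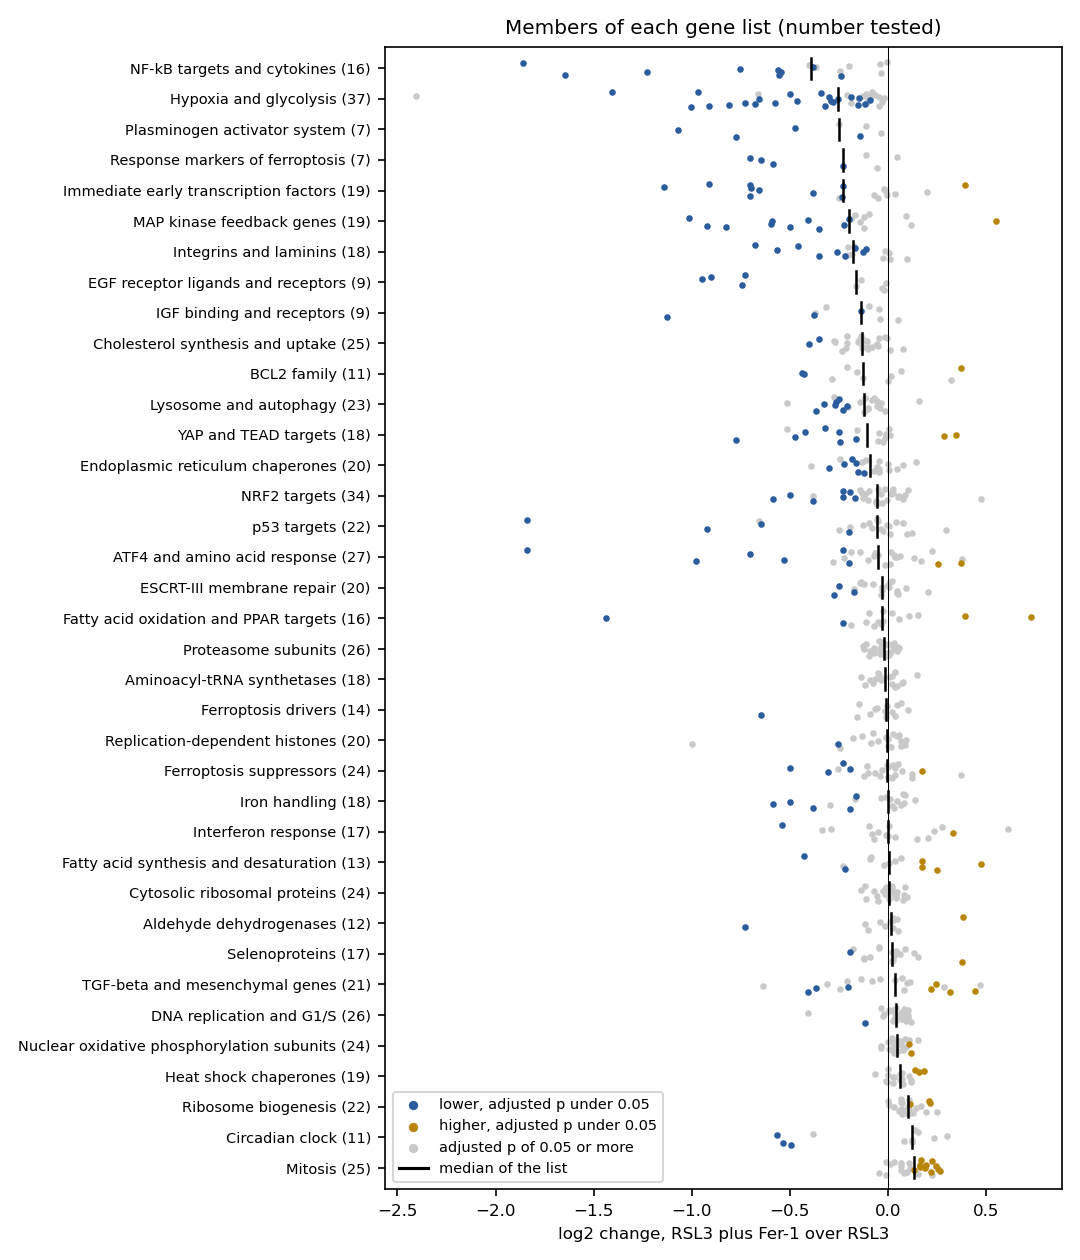
Log2 change with Fer-1 (x axis, RSL3 plus Fer-1 over RSL3) of every tested member of each gene list with 7 or more tested members (rows, with the number tested), blue for called falls, gold for called rises and grey for the rest; black bars are list medians. Of these lists, NF-kB targets and hypoxia genes have the lowest medians, -0.39 and -0.26, and mitosis genes the highest, 0.13. The NF-kB list includes IL1A and CSF1, which would not have reached the FPKM minimum without the RSL3 libraries.

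A few NRF2 targets fell, and most stayed above DMSO. Of 34 tested NRF2 targets, 7 were called lower with Fer-1 and 0 higher, with a median of -0.06, while RSL3 plus Fer-1 against DMSO had 27 of the 34 higher with a median of 0.52. FTH1, the ferritin heavy chain that stores iron, had 704, 724 and 789 CPM with RSL3 plus Fer-1, against 1137, 1015 and 980 CPM with RSL3 and 556 ± 20 CPM with DMSO. It fell 1.41-fold (adjusted p = 0.00134) and stayed above DMSO by 0.41 (adjusted p = 0.00427). HMOX1, which frees iron from haem, had 16.1, 15.2 and 14.8 CPM with RSL3 plus Fer-1, against 26.9, 20.9 and 21.6 CPM with RSL3, and fell 1.5-fold, a call that ended without RSL3 replicate 1 (adjusted p = 0.06). The ferritin light chain FTL fell 1.3-fold, a call that ended without RSL3 plus Fer-1 replicates 1 or 2 or RSL3 replicates 1 or 2 or DMSO replicates 2 or 3 (highest adjusted p = 0.0944). SLC7A11, the cystine importer, had 924, 863 and 869 CPM with RSL3 plus Fer-1, against 1098, 979.5 and 1042 CPM with RSL3 and 427, 433 and 457 CPM with DMSO. Its fall was 1.17-fold (adjusted p = 0.000337), and it remained 1.01 above DMSO on the log2 scale. TXNRD1, the cytosolic thioredoxin reductase, fell 1.14-fold, NQO1 1.12-fold and the autophagy receptor SQSTM1 1.17-fold. AKR1C3, an aldo-keto reductase, had 95.6 ± 4.13 CPM with RSL3 plus Fer-1, 99.6 ± 1.08 CPM with RSL3 and 21.9 ± 3 CPM with DMSO, and GCLM, a subunit of the enzyme that starts glutathione synthesis, 131 ± 5.2, 133 ± 4.86 and 90.6 ± 4.16 CPM. Their differences between the RSL3 groups were -0.06 and -0.03 (adjusted p = 0.74 and 0.825).

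Most regulators of ferroptosis did not pass the test. GPX4, the target of RSL3, had 10.6, 9.07 and 9.32 CPM with RSL3 plus Fer-1, against 12.5, 9.89 and 9.07 CPM with RSL3 and 9.77, 11.1 and 10 CPM with DMSO, overlapping throughout (-0.12, adjusted p = 0.74). AIFM2, which encodes the ubiquinone reductase FSP1, differed by -0.26 (adjusted p = 0.103), and ACSL4, the enzyme that loads polyunsaturated fatty acids into phospholipids, by -0.06 in a locus shared with KCNE5 (adjusted p = 0.483). Of 24 suppressors 4 were called lower and 1 higher. Beside FTH1, SLC7A11 and TXNRD1, the phospholipid acyltransferase MBOAT2 fell 1.24-fold to 38.8 ± 1.87 CPM, against 48 ± 1.34 CPM with RSL3. The desaturase SCD rose 1.13-fold, with overlapping libraries, and that call ended without RSL3 plus Fer-1 replicates 2 or 3 or RSL3 replicates 1 or 2 or DMSO replicate 3 (highest adjusted p = 0.133). Of 14 drivers 1 was called: SAT1, a polyamine catabolic enzyme, had 37.7, 30.2 and 37 CPM with RSL3 plus Fer-1, against 61.4, 51.2 and 52.1 CPM with RSL3, and fell 1.57-fold (adjusted p = 9.2e-06). Response markers of ferroptosis were called lower in 4 of 7, namely DDIT3, SAT1, HMOX1 and SLC7A11, and in 2 of 7 without RSL3 replicate 1. PTGS2, the inducible cyclooxygenase, had 15.5, 12.9 and 16.8 CPM with RSL3 plus Fer-1, against 19.2, 14.9 and 14.8 CPM with RSL3 and 7.86, 6.75 and 7.23 CPM with DMSO, a difference of -0.11 (adjusted p = 0.74). RSL3 plus Fer-1 exceeded DMSO in PTGS2 by 1.05 (adjusted p = 5.17e-06).

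Iron handling genes were called lower in 5 of 18 and higher in 0, with a median of -0.0012. Beside HMOX1, FTH1 and FTL, the iron regulatory protein ACO1 fell 1.14-fold, a call that ended without RSL3 plus Fer-1 replicates 1, 2 or 3 or RSL3 replicates 2 or 3 (highest adjusted p = 0.173). The count of called iron genes was 2 without RSL3 plus Fer-1 replicate 2, RSL3 replicate 1 or RSL3 replicate 2, and 3 without RSL3 plus Fer-1 replicate 1 or 3, RSL3 replicate 3 or DMSO replicate 2. TFRC, the transferrin receptor, differed by 0.05 (adjusted p = 0.454). All 3 tested metallothioneins, small proteins that bind zinc and copper, fell. MT2A had 45.1, 44.6 and 44.4 CPM with RSL3 plus Fer-1, against 70.1, 60.2 and 58.2 CPM with RSL3 and 41, 46.4 and 42.5 CPM with DMSO, and fell 1.41-fold (adjusted p = 2.26e-05). MT1X, in a locus shared with DPPA2P4, and MT1E fell 1.51-fold and 1.28-fold. Near-identical metallothionein copies can share reads, so their split is uncertain. STEAP1, a membrane protein of the STEAP family picked after its value was seen, had 9.63, 9.57 and 7.85 CPM with RSL3 plus Fer-1, against 16.3, 17.7 and 14.8 CPM with RSL3, a 1.8-fold fall. Among 17 selenoproteins, which need the same trace element as GPX4, TXNRD1 was the called fall and the thyroid hormone deiodinase DIO2 the called rise, 1.3-fold to 133 ± 4.61 CPM, against 103 ± 6.73 CPM with RSL3 (adjusted p = 9.97e-06).

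Genes of lipid use moved in both directions. ANGPTL4, a secreted inhibitor of lipoprotein lipase, had 4.74, 6.31 and 5.37 CPM with RSL3 plus Fer-1, against 17.1, 13.8 and 13.7 CPM with RSL3 and 2.75, 2.51 and 1.56 CPM with DMSO. It fell 2.71-fold, -1.44 on the log2 scale (SE 0.178, adjusted p = 2.79e-06), and stayed above DMSO by 1.27 (adjusted p = 5.05e-05). PDK4, which spares glucose when fatty acids are burned, rose in the same list, with 51.7, 51.3 and 58.2 CPM with RSL3 plus Fer-1, against 32.4, 33.5 and 31.3 CPM with RSL3 and 23.3, 23.9 and 23.6 CPM with DMSO. The rise was 1.66-fold (adjusted p = 7.08e-08), and PDK4 was above DMSO by 1.19 with RSL3 plus Fer-1 and by 0.46 with RSL3 (adjusted p = 5.42e-12 and 4.07e-05). PPARGC1A, the coactivator that drives mitochondrial biogenesis, rose 1.31-fold to 29.2 ± 1.42 CPM, against 22.3 ± 0.245 CPM with RSL3 and 22.1 ± 1.45 CPM with DMSO, and the lipid droplet coat gene PLIN3 fell 1.17-fold. These 2 rises and 2 falls were the calls among 16 genes of fatty acid oxidation.

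Fatty acid synthesis was called higher in 4 of 13 and lower in 2. SREBF1, the transcription factor that drives it, had 76.3, 75.4 and 75.6 CPM with RSL3 plus Fer-1, against 53.7, 53.8 and 56.3 CPM with RSL3 and 74.2, 69.7 and 77.6 CPM with DMSO, in a locus that also holds MIR6777. Its rise was 1.39-fold (adjusted p = 1.35e-06). ACACA, the acetyl-CoA carboxylase of the committed step, rose 1.19-fold to 364 ± 7.24 CPM, against 306 ± 15.4 CPM with RSL3, and FASN rose 1.13-fold. The desaturase FADS3, in a locus with MIR6746, and the elongase ELOVL6 fell 1.35-fold and 1.16-fold. Cholesterol genes were called lower in 2 of 25, or 8% against 5.81% of all protein-coding loci, and higher in 0. The changes of 23 of the 25 lay below 0, with a median of -0.13 against 0.0013 over all 9583 loci. INSIG1, which holds back sterol synthesis and was 1 of the 2, fell 1.28-fold, a call that ended without RSL3 plus Fer-1 replicates 1 or 2 or RSL3 replicates 1 or 3 (highest adjusted p = 0.147). The sterol oxidase MSMO1 differed by -0.28 (adjusted p = 0.0944).

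Genes of adhesion and of the plasminogen system were among the falls. F3, the tissue factor that starts blood clotting, fell 1.71-fold to 80.5 ± 4.61 CPM, against 138 ± 10.1 CPM with RSL3. PLAUR, the urokinase receptor, in a locus shared with RN7SL368P, fell 1.39-fold, and SERPINE2 fell 1.11-fold, a call that ended without RSL3 plus Fer-1 replicate 3 (adjusted p = 0.0558). Of 7 tested members of the plasminogen activator list, 4 were called lower and 0 higher. Integrins and laminins, which anchor cells to the matrix, were called lower in 9 of 18 and higher in 0, with a median of -0.18. ITGB4, the hemidesmosome integrin, had 17.4, 21.1 and 22.1 CPM with RSL3 plus Fer-1, against 36.3, 27.4 and 33.3 CPM with RSL3 and 19.1, 19.8 and 21.9 CPM with DMSO, a 1.6-fold fall (adjusted p = 8.72e-05). The collagen-binding ITGA2 had 121, 127 and 123 CPM with RSL3 plus Fer-1, against 192, 179.5 and 179 CPM with RSL3, and fell 1.48-fold. The fibronectin receptor subunit ITGA5 fell 1.38-fold, ITGA3 1.28-fold and their shared partner ITGB1 1.12-fold.

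YAP and TEAD targets were called lower in 7 of 18 and higher in 2. The matricellular genes CCN1 and CCN2 fell 1.39-fold and 1.25-fold. CCN1 lay below DMSO with Fer-1, at 107 ± 1.92 CPM against 141 ± 4.4 CPM with DMSO (-0.41, adjusted p = 3.86e-07), while the CCN2 call ended without RSL3 plus Fer-1 replicates 1, 2 or 3 or RSL3 replicates 2 or 3 or DMSO replicate 2 (highest adjusted p = 0.171). NT5E, the ectoenzyme that makes adenosine, fell 1.34-fold, and the receptor tyrosine kinase AXL 1.19-fold. ARHGEF17 rose 1.27-fold, and the Hippo kinase gene LATS2 rose 1.22-fold, a call that ended without RSL3 plus Fer-1 replicates 1 or 3 or RSL3 replicates 1 or 2 (highest adjusted p = 0.211). TGF-beta and mesenchymal genes split into 4 rises and 3 falls of 21. The ligand TGFB1 fell 1.29-fold to 33.7 ± 2.33 CPM, against 43.6 ± 4.85 CPM with RSL3, and the transcription factors SNAI2 and ZEB1 fell 1.33-fold and 1.15-fold. The SNAI2 call ended without RSL3 plus Fer-1 replicates 1 or 2 or RSL3 replicate 2 (highest adjusted p = 0.0841), and the ZEB1 call without RSL3 plus Fer-1 replicates 1, 2 or 3 or RSL3 replicates 1 or 3 or DMSO replicate 3 (highest adjusted p = 0.268); 1 fall was left without RSL3 plus Fer-1 replicate 1 or 2. The 4 rises were ID3, a target of BMP signals, by 1.36-fold, the ligand BMP2 by 1.25-fold, the inhibitory SMAD6 by 1.17-fold and the receptor TGFBR1 by 1.19-fold, to 709 ± 1.96 CPM, against 598 ± 20 CPM with RSL3.

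Lysosome and autophagy genes were called lower in 7 of 23 and higher in 0, with a median of -0.12. The proteases CTSL, CTSB and CTSD, the last in a locus with IFITM10, fell 1.29-fold, 1.19-fold and 1.21-fold. CTSL had 134, 130.2 and 131 CPM with RSL3 plus Fer-1, against 188, 169.7 and 151 CPM with RSL3 and 99.5 ± 1.68 CPM with DMSO, and stayed above DMSO by 0.40 (adjusted p = 5.03e-05). MAP1LC3B, a coat protein of autophagosomes, fell 1.2-fold, and the sialidase NEU1 fell 1.25-fold, a call that ended without RSL3 plus Fer-1 replicate 1 or RSL3 replicates 1, 2 or 3 (highest adjusted p = 0.177). In the list on membrane repair, which holds ESCRT-III subunits and annexins, 3 of 20 were called lower and 0 higher, and the 3 were annexins, proteins that bind membranes in the presence of calcium. ANXA1 had 326, 320.5 and 316 CPM with RSL3 plus Fer-1, against 407, 391 and 365 CPM with RSL3, and fell 1.21-fold (adjusted p = 1.22e-05). ANXA2 fell 1.19-fold and ANXA5 1.13-fold.

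**Figure D4:**
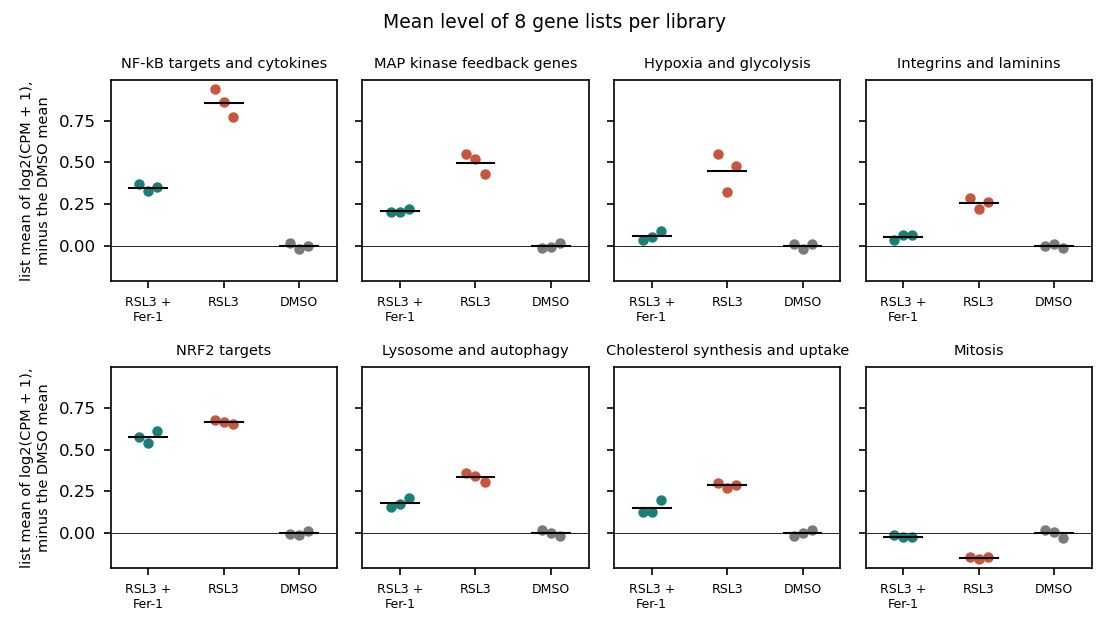
Mean of log2(CPM + 1) over the tested members of 8 gene lists in each library, minus the mean of the DMSO libraries (y axis), for RSL3 plus Fer-1 (green), RSL3 (red) and DMSO (grey); bars are group means. For NF-kB targets the RSL3 plus Fer-1 libraries sit at 0.327 to 0.368 against 0.77 to 0.939 with RSL3, and for NRF2 targets at 0.541 to 0.611 against 0.652 to 0.675. The NF-kB mean includes IL1A and CSF1, which would not have reached the FPKM minimum without the RSL3 libraries, so part of that gap was built into the selection.

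Circadian genes were called lower in 3 of 11 and higher in 0, while the median of the list was 0.12. BMAL1, the core clock activator, listed under its older symbol ARNTL, had 12.1, 10.7 and 14.1 CPM with RSL3 plus Fer-1, against 18.9, 18 and 17.6 CPM with RSL3 and 13.2, 15.2 and 14.2 CPM with DMSO, and fell 1.48-fold (adjusted p = 0.00229). NPAS2, a clock transcription factor that pairs with it, in a locus shared with AC092168, had 169, 173 and 171 CPM with RSL3 plus Fer-1, against 245, 247 and 252 CPM with RSL3, and fell 1.45-fold (adjusted p = 1.53e-10). The repressor BHLHE40, also a hypoxia gene, fell 1.41-fold. In the list on insulin-like growth factors 3 of 9 were called lower. IGFBP1, a binding protein, had 3.3, 2 and 2.45 CPM with RSL3 plus Fer-1, against 6.63, 5.85 and 4.42 CPM with RSL3, a 2.18-fold fall (adjusted p = 0.00191). The insulin receptor substrate IRS1 fell 1.3-fold, a call that ended without RSL3 plus Fer-1 replicates 2 or 3 or RSL3 replicate 2 (highest adjusted p = 0.175), and IGF2R, in a locus with AL353625, fell 1.1-fold, a call that ended without RSL3 plus Fer-1 replicates 1 or 2 or RSL3 replicates 1 or 2 (highest adjusted p = 0.227). Without RSL3 plus Fer-1 replicate 2 or RSL3 replicate 2, 1 of the 3 calls was left. LYZ had 2.98, 2.34 and 3.17 CPM with RSL3 plus Fer-1, against 4.12, 8.68 and 6.61 CPM with RSL3 and 2.96, 5.32 and 4.82 CPM with DMSO. It fell 2.29-fold, and its highest co-treated library lay below its lowest RSL3 library.

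Genes that Fer-1 raised spanned kinases, receptors, channels and enzymes. RHOV, an atypical small GTPase on chromosome 15 at 40872214 to 40874234, had 10.5, 13 and 14.5 CPM with RSL3 plus Fer-1, against 5.51, 5.9 and 6.43 CPM with RSL3 and 11.1, 12 and 10.2 CPM with DMSO. It rose 2.12-fold, 1.09 on the log2 scale (SE 0.144, adjusted p = 7.59e-06), the only called protein-coding rise of at least 2-fold. OLR1, a scavenger receptor for oxidised lipoproteins, had 26.3, 26.6 and 23.1 CPM with RSL3 plus Fer-1, against 12, 16.4 and 13.6 CPM with RSL3 and 28.4, 33.9 and 31.2 CPM with DMSO, and rose 1.81-fold (adjusted p = 3.01e-06). AQP3, a channel for water, glycerol and hydrogen peroxide, had 13.2, 10.9 and 14 CPM with RSL3 plus Fer-1, against 7.09, 7.45 and 7.84 CPM with RSL3, and rose 1.7-fold. MAP2K6, a kinase that activates p38, had 36.6, 38 and 37.7 CPM with RSL3 plus Fer-1, against 21.9, 21.4 and 27.6 CPM with RSL3 and 30.4, 33.3 and 34.9 CPM with DMSO. It rose 1.59-fold (adjusted p = 9e-06), and MAPK4, an atypical MAP kinase in a locus with AC012433, rose 1.91-fold to 15.3 ± 1.45 CPM, against 8.03 ± 0.421 CPM with RSL3.

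CASP9, the initiator caspase of the mitochondrial death pathway, had 18.3, 22.2 and 18.9 CPM with RSL3 plus Fer-1, against 13.8, 10.7 and 12.5 CPM with RSL3 and 15.7, 11.8 and 12.4 CPM with DMSO. Its rise was 1.6-fold (adjusted p = 0.000756), and it lay above DMSO by 0.58 (adjusted p = 0.00405), whereas RSL3 against DMSO gave -0.10 (adjusted p = 0.678). ITPR1, the calcium channel of the endoplasmic reticulum, had 183, 192 and 195 CPM with RSL3 plus Fer-1, against 117, 115 and 139 CPM with RSL3 and 174, 192 and 186 CPM with DMSO, and rose 1.54-fold. SLF1, which recruits the SMC5/6 complex to DNA damage, had 155, 139 and 140.5 CPM with RSL3 plus Fer-1, against 94.8, 93.1 and 100.3 CPM with RSL3, and rose 1.51-fold (adjusted p = 2.48e-09). GAS1, a membrane protein linked to growth arrest, rose 1.61-fold, and the tetraspanin TSPAN8 rose 1.54-fold to 28.9 ± 2.62 CPM, against 18.7 ± 1.45 CPM with RSL3. TNFRSF13C, the receptor of a B cell survival factor in a locus with MIR378I, rose 1.57-fold, and MYLIP, a ubiquitin ligase in a locus with MIR4639, rose 1.55-fold. The TNFRSF13C call ended without RSL3 plus Fer-1 replicates 1 or 2 or RSL3 replicates 1, 2 or 3 (highest adjusted p = 0.155), and the MYLIP call without RSL3 plus Fer-1 replicates 1 or 3 or RSL3 replicates 1 or 2 (highest adjusted p = 0.243).

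CPS1, the urea cycle enzyme that fixes ammonia and is abundant in some lung adenocarcinomas, had 1524, 1607 and 1647 CPM with RSL3 plus Fer-1, against 1053, 1102 and 1171 CPM with RSL3 and 1457, 1501 and 1537 CPM with DMSO, a rise of 1.44-fold, 0.52 on the log2 scale (SE 0.0358, adjusted p = 2.48e-09). It was the 1 call among 6 tested genes of the urea cycle. Aldehyde dehydrogenases had 1 rise and 1 fall among 12. ALDH1A3, which makes retinoic acid and shares its locus with AC015712, had 37.9, 27.1 and 36.4 CPM with RSL3 plus Fer-1, against 58.5, 55.4 and 54.5 CPM with RSL3 and 62.2, 56.5 and 53.8 CPM with DMSO. It fell 1.66-fold (adjusted p = 0.000495), and RSL3 against DMSO gave -0.03 (adjusted p = 0.888). ALDH5A1, of GABA breakdown, rose 1.3-fold, a call that ended without RSL3 plus Fer-1 replicate 3 or RSL3 replicate 1 (highest adjusted p = 0.0701).

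**Figure D5:**
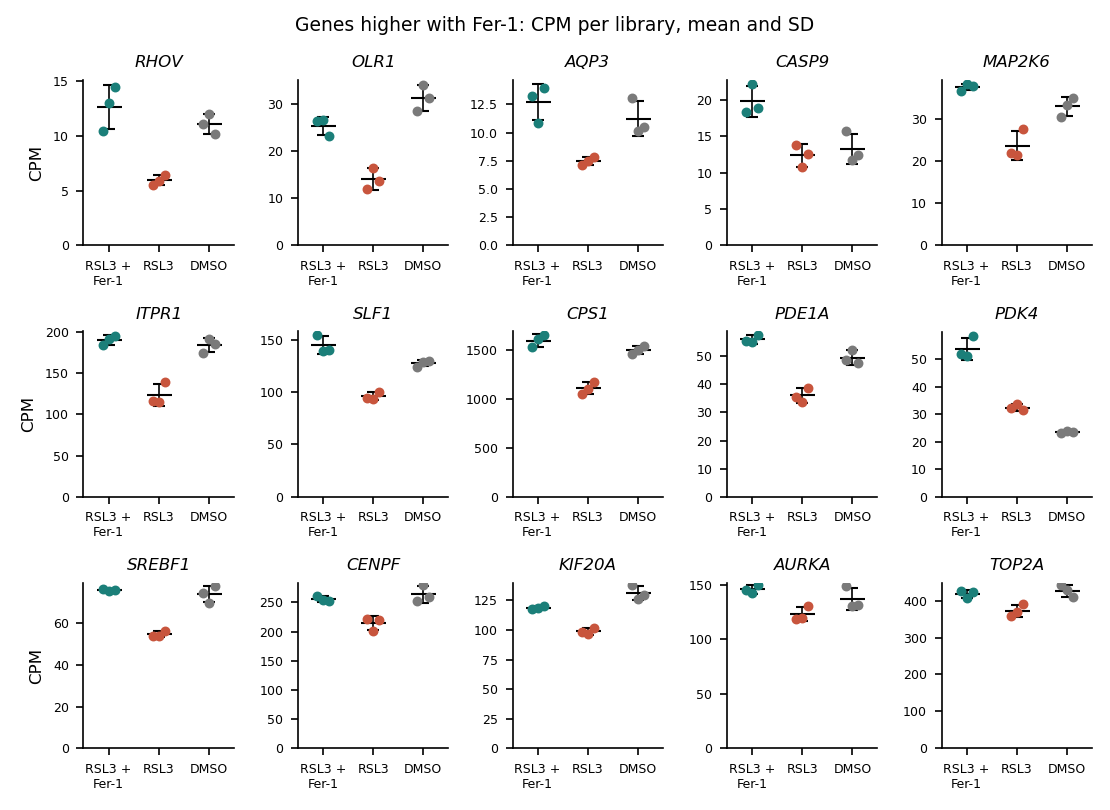
CPM per library (y axis, from 0) of 15 genes that were higher with Fer-1, with RSL3 plus Fer-1 (green), RSL3 (red) and DMSO (grey); bars are the mean and SD of 3 libraries. In every panel the 3 RSL3 plus Fer-1 libraries lie above the 3 RSL3 libraries, and PDK4 is the panel in which both lie above DMSO.

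Some mitosis genes rose, by small amounts. Of 25 tested, 11 were called higher and 0 lower, with a median of 0.13 on the log2 scale. The kinesin KIF20A had 117, 119 and 120.4 CPM with RSL3 plus Fer-1, against 97.9, 96.7 and 102 CPM with RSL3 and 138, 126 and 129 CPM with DMSO, and rose 1.2-fold (adjusted p = 0.000252). CENPF, a kinetochore protein, had 261, 254 and 252 CPM with RSL3 plus Fer-1, against 222, 200.3 and 220.5 CPM with RSL3, and rose 1.19-fold. The mitotic kinase AURKA rose 1.19-fold and the anaphase activator CDC20 1.17-fold. Cyclin B (CCNB1) rose 1.14-fold and topoisomerase TOP2A, in a locus shared with a Y RNA, 1.12-fold. The proliferation marker MKI67 had 302 ± 4.04 CPM with RSL3 plus Fer-1 and 285 ± 5.05 CPM with RSL3 (0.08, adjusted p = 0.188). Of the 11 calls 7 were left without RSL3 plus Fer-1 replicate 1 or 2 or without RSL3 replicate 2, and limma on log2(FPKM + 1) made 3 calls. Among DNA replication genes, 1 of 26 was called lower and 0 higher, with a median of 0.04. CCND1, cyclin D1, fell 1.09-fold, a call that ended without RSL3 plus Fer-1 replicates 2 or 3 or RSL3 replicates 2 or 3 (highest adjusted p = 0.118). Replication-dependent histones had 1 called fall of 20, H2BC9, which ended without RSL3 plus Fer-1 replicates 2 or 3 or RSL3 replicates 1 or 2 (highest adjusted p = 0.231).

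All 22 tested ribosome biogenesis genes had a change above 0, with a median of 0.10 against 0.0013 over all 9583 loci. Of them 3 were called higher, or 13.6% against 3.61% of all protein-coding loci, and 0 lower. Without RSL3 replicate 2 the count was 5. UTP20, of the small subunit processome, rose 1.16-fold to 251 ± 4.63 CPM, against 217 ± 13.6 CPM with RSL3 and 268 ± 7.62 CPM with DMSO. DKC1, the pseudouridine synthase dyskerin, in a locus that also holds small nucleolar RNAs, rose 1.16-fold. The nucleolar NPM1 rose 1.08-fold, a call that ended without RSL3 plus Fer-1 replicates 1, 2 or 3 or RSL3 replicate 3 (highest adjusted p = 0.128). Nuclear genes of oxidative phosphorylation were called higher in 2 of 24, the ATP synthase subunits ATP5F1A and ATP5F1B, by 1.09-fold and 1.08-fold. That is 8.33%, against 3.61% of all protein-coding loci. ATP5F1B shares its locus with SNORD59A. The ATP5F1A call ended without RSL3 plus Fer-1 replicates 2 or 3 or RSL3 replicates 1 or 3 (highest adjusted p = 0.134), and the ATP5F1B call without RSL3 plus Fer-1 replicates 2 or 3 or RSL3 replicate 1 (highest adjusted p = 0.15). Cytosolic ribosomal proteins had 0 of 24 called by edgeR and proteasome subunits 0 of 26. At an unadjusted p under 0.05 there were 4 and 3, DESeq2 called 1 in each list and limma 0. Up to 2 ribosomal proteins (without RSL3 replicate 3) and 1 proteasome subunit (without RSL3 replicate 3 or DMSO replicate 1 or 3) were called when 1 library was left out. RPS2, in a locus with small nucleolar RNAs, and RPS4X differed by 0.04 and 0.02 (adjusted p = 0.577 and 0.807), and PSMB3 and PSMB4 by 0.05 and 0.01 (adjusted p = 0.576 and 0.945).

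The authors' pathway annotation was also counted, over 243 pathways with at least 20 tested members and with no test. Among the pathways with the highest shares of rises was morphine addiction, with 7 rises and 1 fall of 36, and the 7 were cyclic nucleotide phosphodiesterases, enzymes that break down cyclic AMP and cyclic GMP. These genes and the kinases below were picked after their values were seen, apart from PDE1A. PDE10A had 1230, 1247 and 1209 CPM with RSL3 plus Fer-1, against 882, 842 and 956 CPM with RSL3 and 1129, 1143 and 1163 CPM with DMSO, and rose 1.38-fold (adjusted p = 1.86e-09). PDE1A had 55.3, 54.8 and 57.5 CPM with RSL3 plus Fer-1, against 35.6, 33.7 and 38.7 CPM with RSL3, and rose 1.55-fold (adjusted p = 2.01e-07). PDE7B rose 1.27-fold and PDE3A 1.18-fold, with PDE3A at 384 ± 6.17 CPM with RSL3 plus Fer-1, 326 ± 8.14 CPM with RSL3 and 311 ± 5.82 CPM with DMSO. PDE3B rose 1.18-fold, PDE8B, in a locus that joins AGGF1 and others, 1.16-fold, and PDE4D 1.13-fold. The PDE3B call ended without RSL3 plus Fer-1 replicate 1 or RSL3 replicates 1 or 2 (highest adjusted p = 0.119), the PDE8B call without RSL3 plus Fer-1 replicate 1 or RSL3 replicates 1 or 2 (highest adjusted p = 0.111) and the PDE4D call without RSL3 plus Fer-1 replicate 1 (adjusted p = 0.0842). Of the salt-inducible kinases, which cyclic AMP signalling restrains, SIK1 and SIK2 rose and SIK3 differed by 0.04 (adjusted p = 0.865). SIK1 had 111, 102 and 109 CPM with RSL3 plus Fer-1, against 74.8, 75.5 and 81 CPM with RSL3 and 68.3, 68.7 and 76.8 CPM with DMSO, and rose 1.4-fold; its near-identical copy SIK1B can share its reads. SIK2 had 116, 134 and 129 CPM with RSL3 plus Fer-1, against 84.5, 86.8 and 87.3 CPM with RSL3 and 121, 110.4 and 113 CPM with DMSO, and rose 1.47-fold.

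On the side of the falls, the same annotation gave extracellular matrix receptor interaction with 13 falls and 1 rise of 39, mineral absorption with 10 falls and 0 rises of 27, and HIF-1 signalling with 18 falls and 1 rise of 71. Antigen processing and presentation had 8 falls and 0 rises of 30, with a median of -0.013. Its falls were the locus of HLA-C and HLA-B, HLA-E, the proteases CTSL and CTSB, and HSPA5, PDIA3, CALR and CREB1. The highest share of falls was in hematopoietic cell lineage, 11 of 27 with 2 rises. The 11 include IL1A, which reached the FPKM minimum in the RSL3 libraries alone, so its fall was built into its selection. Over all 9583 loci 5.81% were called lower. These pathways share members with the lists above, such as the integrins, the metallothioneins and the glucose transporters.

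By edgeR, epithelial markers were called in 0 of 4 tested and fibroblast markers in 0 of 2, with 2 and 1 at an unadjusted p under 0.05. DESeq2 called 1 epithelial marker and limma 0, both called 0 fibroblast markers, and 2 epithelial markers were called lower without RSL3 replicate 3. KRT18 differed by -0.11 (adjusted p = 0.0686) and MUC1, in a locus with KRTCAP2, by -0.13 (adjusted p = 0.386). COL1A1 had 9.63, 10 and 9.54 CPM with RSL3 plus Fer-1, against 10.4, 12 and 9.96 CPM with RSL3 and 50, 63.5 and 11.6 CPM with DMSO, so that its spread lay in the DMSO libraries. In DMSO replicates 1, 2 and 3, COL1A2 had 2.53, 3.18 and 0.131 FPKM and COL3A1 1.45, 1.87 and 0.111 FPKM. Both lay below the FPKM minimum. What this spread within DMSO means for values set against DMSO was not tested. PDGFRA, in a locus with FIP1L1, differed by -0.18 (adjusted p = 0.202), and the 1 tested endothelial marker, EGFL7 in a locus with MIR126, by -0.75 (adjusted p = 0.0544). EGFL7, which would not have reached the FPKM minimum without the RSL3 libraries, was called lower by DESeq2 and without RSL3 plus Fer-1 replicate 3 or DMSO replicate 2.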

How the data were processed

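Total RNA of A549 cells was sequenced in 9 libraries, 3 each of RSL3 plus Fer-1, RSL3 and DMSO. The deposited table holds estimated counts and FPKM per locus, per the file headers. Cutadapt 1.9, FastQC and GRCh38 are named in the submitters' processing notes; which aligner and counting tool were used is not given in the sources. Counts were whole numbers; whether they are tallies or estimates is not stated, so they were treated as estimates.

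Loci without a gene name (1496, with 0.4798 to 0.5461% of the counts) were left out. Loci with at least 1 FPKM in 3 of 9 libraries were fitted in edgeR 4.0.16 (R 4.3.3; TMM, robust quasi-likelihood, 1 model of 3 groups), with p-values adjusted over 17297 loci; the standard error of a log2 change is its size over the square root of F. CPM used the tested loci and TMM factors. Alternatives used DESeq2 1.42.0, limma 3.58.1, other scalings and filters, and fits that left out 1 library; the test was checked on simulated data, where it missed many small changes and made somewhat more false calls than its threshold allows. Replicates of a group differed by more than sampling noise, so none was counted as a duplicate. The replicate numbers did not pair the samples (correlations of deviations -0.05, -0.005 and -0.018).

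The members and gene lists were chosen with earlier results of these data known. Named genes were the 14 largest falls and rises with no overlap and a mean of at least 5 CPM in the higher group, up to 4 called members per list and direction (the 2 of highest FPKM where none was called), and 10 ferroptosis genes. Other list members and all pathway members were named after their values were seen. Promoters came from RefSeq (GRCh38.p14). Some cell type and pathway markers were not analysed here, and some genes that the rule names are not reported here.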

Additional observations from a re-analysis of the deposited data

How the results depend on the processing

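The 557 falls and 346 rises were 294 to 311 and 142 to 145 with limma on log2(FPKM + 0.1) and log2(FPKM + 1), 416 and 222 without RSL3 replicate 1, and 396 to 567 and 210 to 338 over all fits that left out 1 library; the cause was not tested. Of the 557 falls and 346 rises, 327 and 141 held in every such fit. DESeq2 called all 557 and 346. Limma on log2(FPKM + 1) called 300 of the 557 and 138 of the 346. In the opposite direction 0 were called. By list, limma called 3 endoplasmic reticulum chaperones (edgeR 6), 2 iron genes (edgeR 5), 3 mitosis genes (edgeR 11) and 0 oxidative phosphorylation genes (edgeR 2). Fits with other scalings, filters or p adjustments stayed within 1.5 times of the main counts.

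With the replicate number as a block, 537 falls and 325 rises were called, although the numbers did not pair the samples.

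Of the genes named, signs turned only for genes that were not called: over the fits that left out 1 library, ATF4 ran from -0.02 to 0.06, GPX4 from -0.22 to 0.03, PTGS2 from -0.20 to 0.02, PSMB4 from -0.02 to 0.04 and SIK3 from -0.02 to 0.07 on the log2 scale. A gene without a call may still differ.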
